A study of Mus musculus with 2 samples.

Results

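Elmo1, Dock1, Dock2, Dock10, Vav1, Vav3, Arhgap26, Rac1 and Rac2 encode regulators of the actin cytoskeleton that drive the uptake of apoptotic cells and opsonized particles. Chromatin accessibility at these 9 genes was compared with ATAC-seq, an assay in which Tn5 transposase inserts adapters into open DNA, between colonic macrophages lacking Tle4 and control macrophages. For each gene, every peak overlapping its RefSeq span (GRCm38.p6, the assembly behind mm10) or the 10 kb on either side was taken, which gave 388 of the 128129 Tle4cKO peaks and 413 of the 128737 WT peaks. A further 26 Tle4cKO and 32 WT peaks lay just outside, 10 to 20 kb from the genes. The set was partly chosen on these data, because Vav3, Arhgap26 and Elmo1 were known to hold many peaks of the WT list alone. All values below therefore describe the libraries, and no difference was tested.

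The knockout animals were Tle4f/f Lyz2-Cre mice (Tle4cKO), in which Cre expressed from the myeloid Lyz2 gene removes the floxed Tle4, a Groucho-family transcriptional corepressor. The controls were Lyz2-Cre mice without the floxed allele (WT), so both genotypes carried Cre. All mice were untreated C57BL/6 males, and the labels give an age of 18.9 weeks. Macrophages negative for Siglec-F, low for Ly6C and positive for CD64 were sorted from the colon, and the cells of 2 mice per genotype were pooled into 1 library each. With 1 library per genotype there is no replicate check on any difference, and the efficiency of the deletion in these cells is not given in the sources used here.

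As background, engulfment needs local activation of the small GTPase RAC, which drives actin assembly under the forming cup. ELMO1 bound to DOCK1 or DOCK2 forms a split guanine nucleotide exchange factor (GEF) that loads RAC with GTP below receptors for apoptotic cells. VAV proteins are GEFs switched on by tyrosine phosphorylation below Fc receptors and integrins, and ARHGAP26, also called GRAF1, is a GTPase-activating protein (GAP) that turns off RHOA and CDC42. Resident gut macrophages are known for clearing dying epithelial cells by this route.

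RefSeq promoter entries (GRCm38.p6) matched 6 of the 9 genes, Elmo1, Dock1, Dock2, Dock10, Vav1 and Vav3, with 10 transcript starts. The 250 bases before each start were searched on both strands for GAGGAAGT (the PU.1 type of ETS site), AGGAAG (the ETS core, which GAGGAAGT contains), TGACTCA (the AP-1 site, read as TGAGTCA from the opposite strand), the E-box CACGTG and the RUNX core TGTGGT. The ETS core AGGAAG was present in 4 of the 10 windows, against 29.6% of all 32536 RefSeq windows of this length. In Vav1, Dock2 and the internal start of Dock10 it lay close to the start, with its first base at -10, -8 and -23 counted back from the start. In Vav3 a pair of adjoining matches on opposite strands lay farther away. The Vav1 match was part of GAGGAAGT, which 2.45% of all windows contain. These windows are shown because each lies under one of the strong start-site peaks described next, with the matched letters in capitals.
Vav1 site 1, chr17:57278850-57279099 (+ strand): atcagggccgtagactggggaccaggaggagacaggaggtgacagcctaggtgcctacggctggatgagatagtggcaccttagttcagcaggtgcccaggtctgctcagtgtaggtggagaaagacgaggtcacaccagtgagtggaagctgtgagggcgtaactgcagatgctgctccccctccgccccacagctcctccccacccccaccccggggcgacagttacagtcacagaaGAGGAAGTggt
Dock2 site 1, chr11:34783906-34784155 (- strand): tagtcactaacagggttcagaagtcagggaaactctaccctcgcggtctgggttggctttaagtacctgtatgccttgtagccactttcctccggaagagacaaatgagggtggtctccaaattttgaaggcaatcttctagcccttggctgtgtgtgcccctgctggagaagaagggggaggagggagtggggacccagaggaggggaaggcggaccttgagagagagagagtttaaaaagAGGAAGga
Dock10 site 2, chr1:80665353-80665602 (- strand): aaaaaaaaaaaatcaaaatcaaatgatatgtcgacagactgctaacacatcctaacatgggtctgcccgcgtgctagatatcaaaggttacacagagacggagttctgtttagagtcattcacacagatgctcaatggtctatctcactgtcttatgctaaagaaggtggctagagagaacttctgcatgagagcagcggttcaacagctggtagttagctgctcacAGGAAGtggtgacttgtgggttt
Vav3 site 1, chr3:109340433-109340682 (+ strand): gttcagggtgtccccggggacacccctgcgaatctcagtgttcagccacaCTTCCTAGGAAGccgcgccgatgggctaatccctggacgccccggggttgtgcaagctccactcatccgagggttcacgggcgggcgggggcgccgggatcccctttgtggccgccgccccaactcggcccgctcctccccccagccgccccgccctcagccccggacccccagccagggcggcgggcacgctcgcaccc

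The other printed windows let the internal starts of Elmo1 and Vav3 be set beside the main starts. The main starts of Elmo1 and Dock10 held none of the searched letters in this window and had GC contents of 61.6% and 70.4%, with 21 and 27 CpG dinucleotides. The internal starts of Elmo1 and Vav3 had GC contents of 43.6% and 42.4% and 5 and 3 CpG dinucleotides, against a median GC of 52.4% over all windows. The window of the internal Vav3 start held TGAGTCA, which on either strand occurs in 4.45% of all windows. CACGTG occurs in 6.04% and TGTGGT in 14.0% of all windows and neither was found in the 10. A match of letters is not evidence of binding.
Elmo1 site 1, chr13:20090257-20090506 (+ strand): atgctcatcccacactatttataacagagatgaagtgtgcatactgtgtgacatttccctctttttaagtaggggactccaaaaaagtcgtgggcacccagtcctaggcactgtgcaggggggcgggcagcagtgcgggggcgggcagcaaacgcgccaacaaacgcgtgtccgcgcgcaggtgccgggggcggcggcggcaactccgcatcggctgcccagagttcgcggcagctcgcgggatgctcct
Elmo1 site 2, chr13:20472740-20472989 (+ strand): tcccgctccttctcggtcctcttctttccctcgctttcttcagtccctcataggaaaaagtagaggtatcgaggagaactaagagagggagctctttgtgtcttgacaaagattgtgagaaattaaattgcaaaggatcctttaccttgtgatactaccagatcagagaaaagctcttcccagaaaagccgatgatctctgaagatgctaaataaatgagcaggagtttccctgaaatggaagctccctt
Dock10 site 1, chr1:80758554-80758803 (- strand): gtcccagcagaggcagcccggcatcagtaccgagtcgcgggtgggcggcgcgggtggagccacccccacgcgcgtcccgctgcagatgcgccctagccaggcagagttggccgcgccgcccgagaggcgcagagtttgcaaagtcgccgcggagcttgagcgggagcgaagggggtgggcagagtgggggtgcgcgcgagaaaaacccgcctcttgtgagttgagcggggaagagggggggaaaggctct
Vav3 site 3, chr3:109573757-109574006 (+ strand): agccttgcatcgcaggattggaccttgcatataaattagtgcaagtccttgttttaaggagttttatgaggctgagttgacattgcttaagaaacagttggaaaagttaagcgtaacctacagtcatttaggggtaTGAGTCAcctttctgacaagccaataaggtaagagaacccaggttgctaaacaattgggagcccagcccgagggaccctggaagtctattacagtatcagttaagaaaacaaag

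The main starts were open in both genotypes. In each library a peak covered 8 of the 10 starts. The pileup of a peak is the authors' own value at its summit in whole units, and it was lower in Tle4cKO over most of the genome, so that the median Tle4cKO to WT ratio of 92335 matched pairs was 0.741. Each ratio is therefore read against the median ratio of pairs of like summed pileup, and the 95% exact interval given with a ratio covers counting error only. At Elmo1 the start-site pileup was 121 in Tle4cKO and 162 in WT, a ratio of 0.747 (0.585 to 0.951) against 0.797 for pairs of like pileup. Vav1, the blood-cell VAV, had 96 in Tle4cKO and 122 in WT (0.787, 0.596 to 1.04, against 0.754). Dock2, the DOCK of leukocyte migration, had 107 in Tle4cKO and 134 in WT (0.799, 0.613 to 1.04, against 0.771). In each of these 3 genes the interval contained the ratio of like pairs.

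Vav3 had 110 in Tle4cKO and 141 in WT over its paired outer starts, and Dock1, the broadly expressed partner of ELMO1, had 71 in Tle4cKO and 92 in WT. Their ratios of 0.780 and 0.772 lay beside 0.771 and 0.721 for like pairs. Dock10, a DOCK of the branch that also acts on CDC42, had open chromatin at both of its starts, the main one with 89 in Tle4cKO and 124 in WT and the internal one (chromosome 1, 80665352) with 115 in Tle4cKO and 121 in WT. The internal start was thus the strongest Dock10 peak of the Tle4cKO list, whereas the strongest of the WT list, with 126, lay at 80715527 to 80717894. The ratio was 0.718 (0.540 to 0.950) at the main start and 0.950 (0.730 to 1.24) at the internal start, against 0.754 and 0.763 for like pairs. The intervals of both starts overlap and each contains the ratio of like pairs. No peak of either list covered the internal starts of Elmo1 (chromosome 13, 20472990) and Vav3 (chromosome 3, 109574007). The nearest Tle4cKO peaks lay 144 and 55 bp away with pileups of 14 and 15, both absent from the WT list. Of all Tle4cKO peaks of like pileup, 22.8% and 13.7% were absent from it too. The nearest WT peaks lay 770 and 1406 bp away with pileups of 17 and 25, and the one at Elmo1 was absent from the Tle4cKO list. A further WT peak lay 101 bp from the Tle4cKO peak at Elmo1.

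**Figure D1:**
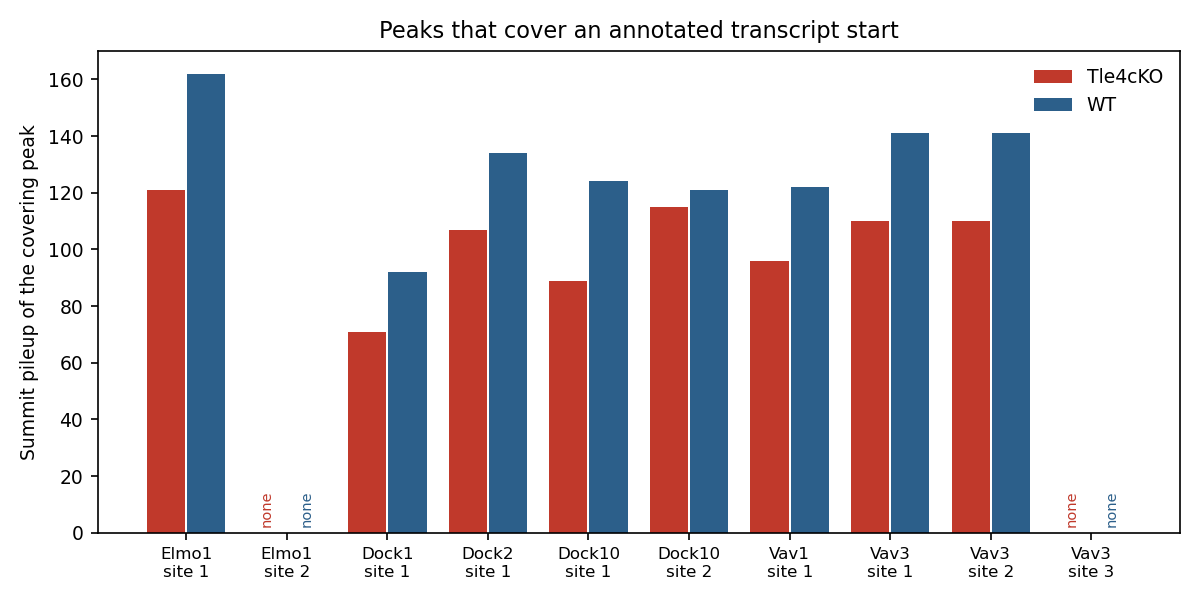
Summit pileup of the peak that covers each of the 10 RefSeq transcript starts, with Tle4cKO bars left of WT bars and 1 library per bar; "none" marks a start that no peak covers. WT is the higher library at all 8 covered starts, as it is in 83815 of all 92335 matched pairs. Vav3 sites 1 and 2 lie under the same peak, which is drawn for each. The closest values are at the internal Dock10 start (115 in Tle4cKO and 121 in WT).

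The promoter table was not used for the GTPases and Arhgap26, whose gene ends were examined instead. Rac1, the ubiquitous RAC, had 137 in Tle4cKO and 174 in WT at its high-coordinate end (chromosome 5, 143526609 to 143528521 in WT), a ratio of 0.787 against 0.807 for like pairs. Rac2, the blood-cell RAC that also serves the NADPH oxidase, had 106 in Tle4cKO and 152 in WT (chromosome 15, 78571223 to 78573456 in WT). That ratio was 0.697 (0.539 to 0.900), against 0.780 for like pairs. At Arhgap26 the low-coordinate end (chromosome 18, 38600670 to 38602051 in WT) had 86 in Tle4cKO and 118 in WT, and this peak also overlaps the neighbouring gene Spry4. Within 1000 bp of the annotated ends of the 9 genes lay 16 Tle4cKO and 15 WT peaks, of which 1 in each list was absent from the other. The Tle4cKO-only gene-end peak was at Rac2, with a pileup of 9, and the WT-only one was at Vav3.

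A peak was counted as shared if 1 bp or more of it fell in a peak of the other library, and otherwise as Tle4cKO-only or WT-only. Over the 9 genes 84 of 388 Tle4cKO peaks (21.6%, 17.7% to 26.1%) were Tle4cKO-only, against 23.5% of all Tle4cKO peaks. In WT 122 of 413 peaks (29.5%, 25.2% to 34.2%) were WT-only, against 27.1% of all WT peaks. Both shares lie near the background. Weak peaks are often in 1 list alone, so each count was also set beside the number that the list-only shares of peaks of like pileup add up to. That number was 76.7 for Tle4cKO and 119.7 for WT, so the observed counts were 1.10 times and 1.02 times as high. More Tle4cKO-only than WT-only peaks were found at 2 of the 9 genes and the opposite at 4, while over 14246 protein-coding genes with a list-only peak the shares were 35.0% and 50.0%.

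**Figure D2:**
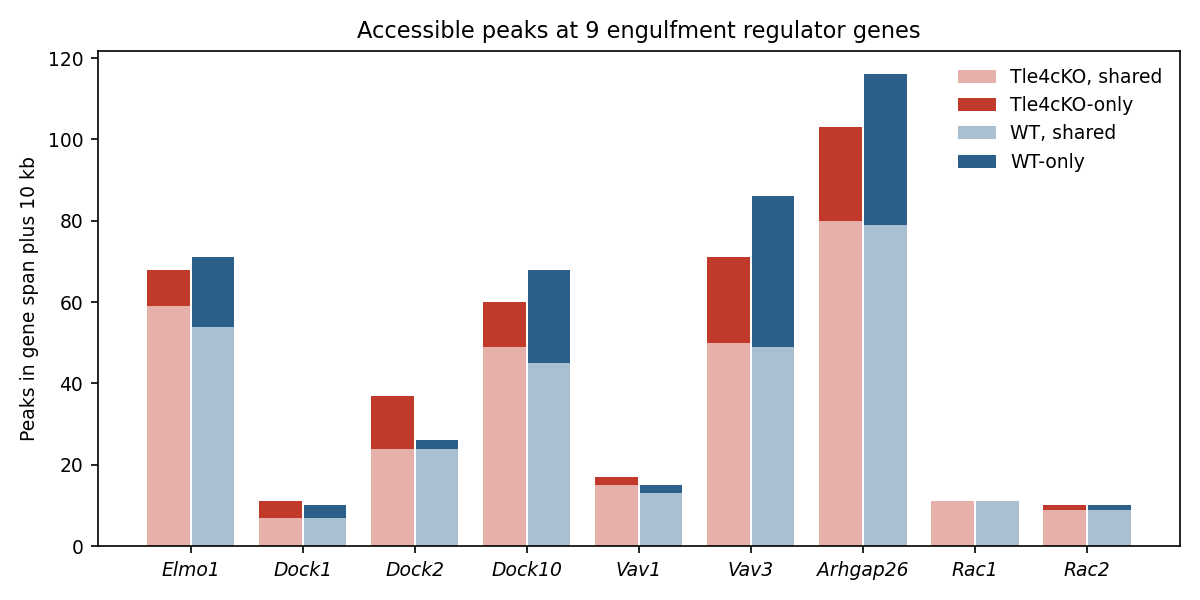
Number of peaks in the span of each gene plus 10 kb on either side, Tle4cKO bars left of WT bars, with shared peaks pale and list-only peaks dark. Arhgap26 holds the most peaks (103 in Tle4cKO and 116 in WT), and Dock2 has 13 Tle4cKO-only and 2 WT-only peaks, where peaks of like pileup give 11.6 Tle4cKO-only and 7.04 WT-only.

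Elmo1, the adaptor that gives the ELMO and DOCK pair its name, was densely accessible (chromosome 13, 20090507 to 20608353). It held 68 Tle4cKO and 71 WT peaks, of which 9 were Tle4cKO-only and 17 WT-only, beside 10.4 Tle4cKO-only and 15.9 WT-only for peaks of like pileup. With the gene cut into 3 equal stretches from its start, the stretch at the start held 43 Tle4cKO and 40 WT peaks, and 3 of the Tle4cKO and 4 of the WT peaks were list-only. The last stretch held 9 Tle4cKO and 15 WT peaks, of which 2 in Tle4cKO and 9 in WT were list-only. Of the WT-only peaks, 6 followed each other over 41.9 kb (20507985 to 20549905) with no Tle4cKO peak between them, at pileups of 8 to 16. The strongest WT peak of the gene lay inside it at 20111084 to 20112189, with 114 in Tle4cKO and 169 in WT (ratio 0.675, 0.527 to 0.860, against 0.797 for like pairs). The strongest list-only peaks were near equal, 35 in Tle4cKO at 20131681 to 20132045 and 33 in WT at 20115523 to 20115734.

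Dock1 (chromosome 7, 134670687 to 135173647) was the most sparsely accessible gene, with 11 Tle4cKO and 10 WT peaks. Of these, 4 were Tle4cKO-only, at pileups of 9 to 12, and 3 were WT-only, at 9 to 34. The sign of that small difference turned when peaks of pileup under 15 were left out, with 0 Tle4cKO-only and 2 WT-only peaks. A peak at 134688919 to 134689709 had 25 in Tle4cKO and 54 in WT (ratio 0.463, 0.276 to 0.757, against 0.681 for like pairs). The neighbouring peak at 134692369 to 134693724 had 46 in Tle4cKO and 48 in WT.

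Dock2 (chromosome 11, 34226815 to 34783905) held 37 Tle4cKO and 26 WT peaks, of which 13 were Tle4cKO-only and 2 WT-only. Peaks of like pileup would give 11.6 Tle4cKO-only and 7.04 WT-only peaks. Of 750 protein-coding genes with at least 20 peaks in each list, 5 had a lower number of WT-only peaks relative to peaks of like pileup. The 13 Tle4cKO-only peaks were weak, with pileups of 8 to 15, and 8 of them lay in the stretch farthest from the start. A run of 5 spanned 32.5 kb (34267892 to 34300388). At a pileup of at least 15 a single one was left. In the first stretch, where the median pileup was 43 in Tle4cKO and 73 in WT, 2 of 15 Tle4cKO and 0 of 12 WT peaks were list-only. There the peak at 34775859 to 34776431 had 44 in Tle4cKO and 85 in WT (ratio 0.518, 0.351 to 0.753, against 0.703 for like pairs). Far from the start, the peak at 34372066 to 34372875, inside the nested gene Insyn2b, had 42 in each library.

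Dock10 (chromosome 1, 80501068 to 80758765) held 60 Tle4cKO and 68 WT peaks. Of these, 11 were Tle4cKO-only and 23 WT-only, beside 10.2 Tle4cKO-only and 21.2 WT-only for peaks of like pileup. The last stretch of the gene, counted from its main start, held 6 of the Tle4cKO-only and 17 of the WT-only peaks, where the median pileup was 12.5 in Tle4cKO and 11.5 in WT. Of the 11 Tle4cKO-only peaks 9, and of the 23 WT-only peaks 21, had a pileup under 15. Over the whole lists most list-only peaks were this weak too. Only 2602 of 30079 Tle4cKO-only and 10262 of 34872 WT-only peaks reached 15. Among peaks at or above the median pileup of their list (20 in Tle4cKO and 28 in WT) the order turned, with 1 Tle4cKO-only and 0 WT-only peaks. That Tle4cKO-only peak had a pileup of 44, lay at 80756768 to 80756974 near the main start, and was 207 bp from the nearest WT peak. The summits of the main start-site peak lay 900 bp apart in the libraries.

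Vav1 (chromosome 17, 57279100 to 57329236) was compact and strongly accessible, with a median pileup of 60 in Tle4cKO and 83 in WT, against 20 in Tle4cKO and 28 in WT over the lists. It held 17 Tle4cKO and 15 WT peaks, with 2 list-only peaks in each. The strongest Tle4cKO peak lay upstream of the gene at 57274898 to 57276098, with 146 in Tle4cKO and 165 in WT. The strongest WT peak lay inside it at 57289928 to 57291422, with 139 in Tle4cKO and 180 in WT. All 13 pairs had the higher raw pileup in WT, as had 83815 of all 92335 pairs. The relative log2 ratios of the 13 pairs were confined to -0.17 to 0.25. The strongest Tle4cKO-only peak, 27 at 57332264 to 57332708, lay in the downstream flank, 720 bp from a WT peak.

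Vav3 (chromosome 3, 109340465 to 109685694), a VAV of wider expression, held 71 Tle4cKO and 86 WT peaks. Of these, 21 (29.6%) were Tle4cKO-only and 37 (43.0%) WT-only. Over the same 750 genes the upper quartile was 25.9% for the Tle4cKO-only share and 31.8% for the WT-only share. Both shares of Vav3 lay above it, but its many WT-only peaks were known when the gene was chosen. Beside peaks of like pileup, which give 17.2 Tle4cKO-only and 32.1 WT-only, the surplus was small in both. Of the list-only peaks 18 in Tle4cKO and 31 in WT had a pileup under 15, as had most list-only peaks of both whole lists. Of the 6 stronger WT-only peaks, 3 had summits 13.0 to 25.8 kb from the start. They had pileups of 39 at 109353296 to 109353577, 54 at 109357578 to 109358121 and 46 at 109365832 to 109366323. Of WT peaks with a like pileup, 8.70%, 5.47% and 7.69% were WT-only. The nearest Tle4cKO peaks lay 88, 2235 and 1862 bp away, so the first would count as shared within 500 bp. In the same region a Tle4cKO-only peak of 27 lay at 109354013 to 109354212. The other WT-only peaks had pileups of 32, 18 and 16 and the other Tle4cKO-only peaks 22 and 15, all farther into the gene.

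The pair with the lowest relative ratio among the strong pairs of all 9 genes was also in Vav3, at 109554982 to 109555714, with 21 in Tle4cKO and 51 in WT. Its ratio was 0.412 (0.235 to 0.697), and 0.690 for like pairs lay at the edge of that interval. With both lists cut to their 100000 highest peaks, Vav3 had 15 Tle4cKO-only and 12 WT-only peaks, which turns the direction of the difference.

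Arhgap26 (chromosome 18, 38601617 to 39376285) held 103 Tle4cKO and 116 WT peaks, the most of the 9 genes, most of them in the high-coordinate part of the span. With the span cut into 3 equal stretches, the low-coordinate one held 8 peaks in each list. Of all its peaks 23 were Tle4cKO-only and 37 WT-only, beside 20.1 Tle4cKO-only and 36.3 WT-only for peaks of like pileup. The WT surplus came from weak peaks, since 30 of the 37 WT-only and 15 of the 23 Tle4cKO-only peaks had a pileup under 15. Most list-only peaks of the whole lists were this weak too, all but 10262 of 34872 in WT and 2602 of 30079 in Tle4cKO. At a pileup of at least 15 there were 8 Tle4cKO-only and 7 WT-only peaks, while over the whole lists 3.28% of Tle4cKO peaks and 10.9% of WT peaks of that pileup were list-only. At or above the median pileup of each list there were 6 Tle4cKO-only peaks of 61 and 2 WT-only peaks of 50, beside 1.28 Tle4cKO-only and 2.32 WT-only for peaks of like pileup. The strongest had a pileup of 55 at 38995497 to 38995709, and 0.875% of Tle4cKO peaks of like pileup were Tle4cKO-only. It lay 1162 bp from the nearest WT peak and close to the strongest peak of the gene (38992239 to 38993985 in WT), which had 174 in Tle4cKO and 199 in WT.

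The shared Arhgap26 peaks leaned the same way. Of 78 pairs, 12 had the higher raw pileup in Tle4cKO, against 6.59% of all pairs, and 50 had a relative log2 ratio above 0, against 48.4%. The median relative log2 ratio was 0.14, a 1.10-fold difference, with the middle 50% of its pairs between -0.03 and 0.33. Over the 40 pairs with a summed pileup of at least 60 the median was 0.04, so the lean lay mainly in weaker pairs. The pair with the highest relative ratio lay at 38949908 to 38950566 in Tle4cKO, where the predicted gene Gm5820 overlaps, with 51 in Tle4cKO and 33 in WT. That ratio of 1.55 (0.978 to 2.47) was 2.27-fold above the 0.680 of like pairs. The nested gene Fgf1 took up 10 Tle4cKO and 9 WT peaks of the window.

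**Figure D3:**
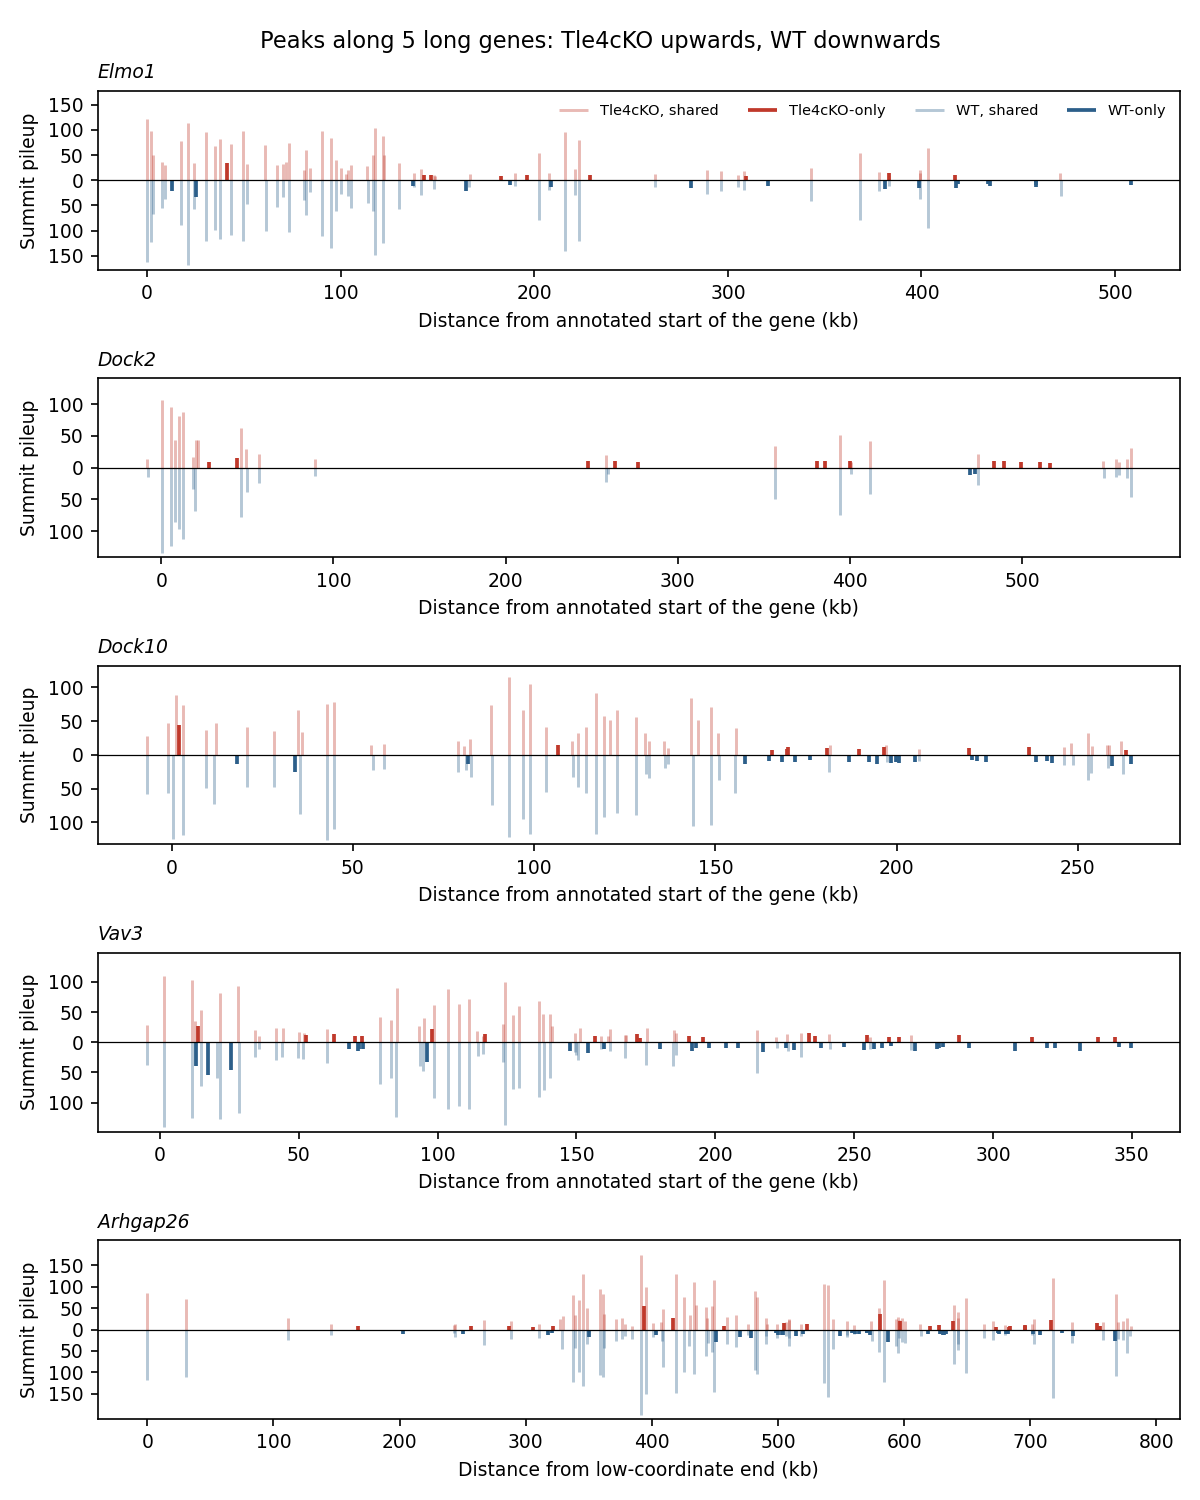
Summit pileup of every peak along 5 long genes, Tle4cKO upwards and WT downwards, against distance in kb from the annotated start of the gene (for Arhgap26 from its low-coordinate end); shared peaks are pale and list-only peaks dark. Strong shared peaks form the same pattern in both libraries, and the dark list-only peaks are mostly short. Far from the start, WT-only peaks are frequent in Elmo1, Dock10 and Vav3, and Tle4cKO-only peaks in Dock2, Dock10 and Vav3.

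Across the 9 genes, stronger list-only peaks were few. At or above the median pileup of its list, 11 of 230 Tle4cKO peaks (4.78%) were Tle4cKO-only, against 1.76% of all such Tle4cKO peaks, and 6 of the 11 were at Arhgap26. In WT it was 8 of 205 peaks (3.90%), against 4.00% of all such WT peaks, and 4 of the 8 were at Vav3. With the same threshold, peaks of like pileup give 4.39 Tle4cKO-only and 8.27 WT-only peaks. A pileup of 50 or more was reached by 1 list-only peak in each library, the Arhgap26 peak of 55 in Tle4cKO and the Vav3 peak of 54 in WT. Of the 84 Tle4cKO-only and 122 WT-only peaks, 24 and 25 had a peak of the opposite library no more than 500 bp away.

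**Figure D4:**
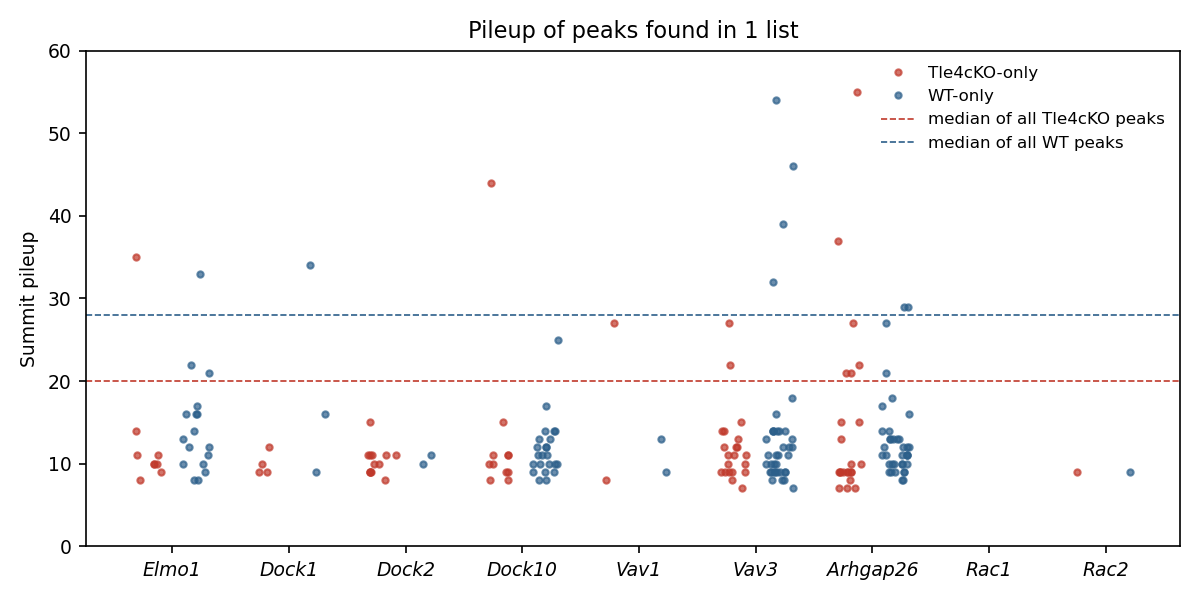
Summit pileup of each list-only peak by gene, Tle4cKO-only points left of WT-only points, with dashed lines at the median pileup of all peaks of each list (20 in Tle4cKO and 28 in WT). Most points lie below 15; those above the lines gather at Arhgap26 for Tle4cKO and at Vav3 for WT.

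Few pairs stood apart in height. Of 284 pairs 14 were at least 1.5-fold higher in Tle4cKO relative to like pairs, against 3.88% of all pairs, and 8 of the 14 were at Arhgap26. At least 1.5-fold lower were 4, against 3.32% of all pairs. For most of the higher pairs, also at Arhgap26, and for all of the lower ones, the counting interval contained the ratio of like pairs. With a summed pileup of at least 60 the counts were 3 higher and 1 lower of 168 pairs, against 0.944% and 1.35%. The median relative log2 ratio over the 284 pairs was 0.04, with 0 over all pairs by construction. Single genes ranged from -0.14 at Rac2 to 0.14 at Arhgap26.

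Rac2 and Rac1 differed in sign. At Rac2 6 of 8 pairs lay below like pairs, among them the flanking peak at 78581048 to 78582338 with 68 in Tle4cKO and 116 in WT (ratio 0.586, 0.428 to 0.798, against 0.733). At Rac1, which held 11 peaks in each list and no list-only peak, the 10 pairs had a median of 0.04. It became -0.01 with 50 kb on either side.

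**Figure D5:**
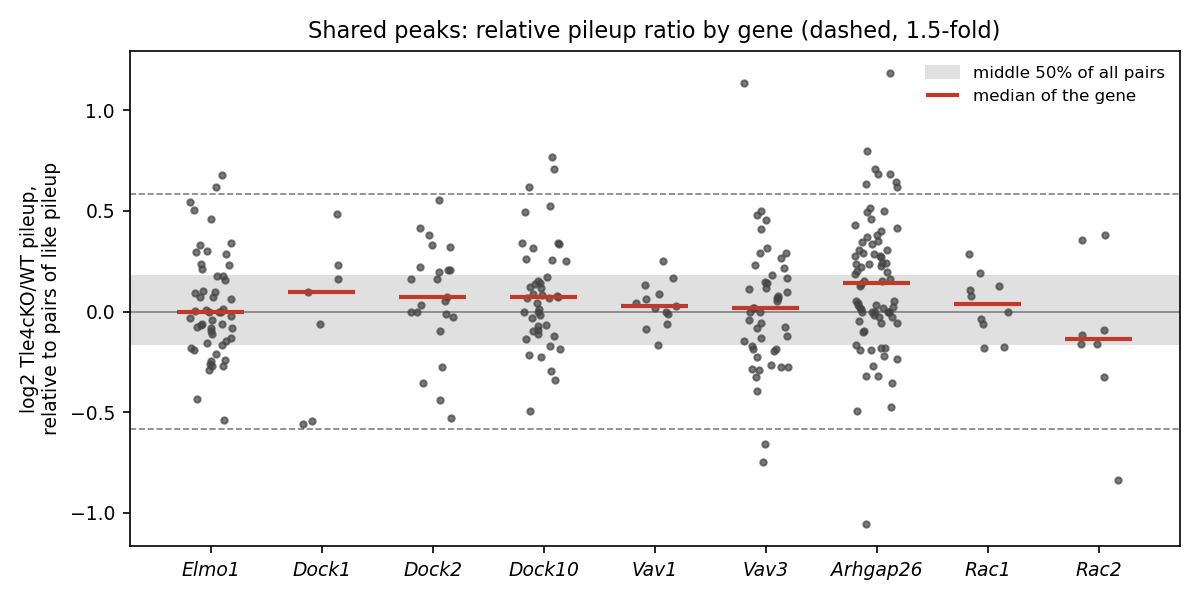
Relative log2 ratio of Tle4cKO over WT pileup for each matched pair by gene, with 0 as the median of pairs of like pileup, the middle 50% of all pairs in grey and dashed lines at 1.5-fold. Gene medians (red) run from -0.14 at Rac2 to 0.14 at Arhgap26, and 18 points of 284 reach the dashed lines.

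Peak shape also followed the background. The median width ratio of Tle4cKO over WT was 0.945 over the pairs of the 9 genes and 0.931 over all pairs. Of the 284 pairs 182 were wider in WT, against 69.5% of all pairs. Summits lay a median of 36 bp apart, and 63 pairs (22.2%) were more than 200 bp apart, against 24.7% of all pairs. Elmo1 pairs had nearly the same width in both libraries (ratio 0.995), whereas the 7 Dock1 pairs had a ratio of 0.606. The 9 genes had 266648 bp in Tle4cKO peaks and 306916 bp in WT peaks, where the whole lists had 89165559 bp in Tle4cKO and 101192514 bp in WT.

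Other genes of the pathway showed how the members sit among their relatives. The 36 further genes held 103 Tle4cKO-only peaks (20.2%) and 153 WT-only peaks (28.0%), against 23.5% and 27.1% over the whole lists. More Tle4cKO-only peaks were found at 9 of them and more WT-only peaks at 19, against 35.0% and 50.0% of all coding genes with a list-only peak. In the DOCK family, 0 of the other 8 genes had more Tle4cKO-only peaks and 6 had more WT-only peaks. Dock4 had 8 Tle4cKO-only and 26 WT-only peaks, beside 9.62 Tle4cKO-only and 19.3 WT-only for peaks of like pileup. Dock5 had 4 Tle4cKO-only and 10 WT-only peaks, beside 3.91 Tle4cKO-only and 6.75 WT-only. Among the ELMO and VAV genes, Elmo2 had 3 Tle4cKO-only and 0 WT-only peaks, beside 2.33 Tle4cKO-only and 0.115 WT-only. Elmo3 had 0 Tle4cKO-only and 1 WT-only peak, beside 0.194 Tle4cKO-only and 0.395 WT-only. Vav2 had 6 of each, beside 4.75 Tle4cKO-only and 5.89 WT-only.

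Among the GTPases beside RAC, Rhoa had 0 Tle4cKO-only and 5 WT-only peaks, beside 0.383 Tle4cKO-only and 3.71 WT-only for peaks of like pileup. Cdc42 had 4 Tle4cKO-only and 5 WT-only peaks, beside 2.61 Tle4cKO-only and 3.76 WT-only. Rhog, the GTPase that recruits ELMO, had 0 Tle4cKO-only and 2 WT-only peaks, beside 0.0665 Tle4cKO-only and 0.481 WT-only. Of the relatives of Arhgap26, Arhgap10 had 23 Tle4cKO-only and 19 WT-only peaks, near the 19.6 Tle4cKO-only and 19.3 WT-only of like pileup. Arhgap42 had 4 Tle4cKO-only and 0 WT-only peaks, beside 3.96 Tle4cKO-only and 2.38 WT-only. Of the 9 upstream genes, Adgrb1, which encodes the phosphatidylserine receptor BAI1, had 12 Tle4cKO-only and 2 WT-only peaks, beside 9.28 Tle4cKO-only and 1.89 WT-only for peaks of like pileup. All were low, since the highest of any peak there was 11 in Tle4cKO and 19 in WT. Crkl and Fcer1g, which encode a DOCK1 adaptor and the Fc receptor gamma chain, had 0 Tle4cKO-only and 2 WT-only peaks each. Peaks of like pileup give 1.48 Tle4cKO-only and 1.43 WT-only at Crkl, and 0.0292 Tle4cKO-only and 0.183 WT-only at Fcer1g. The 10 actin effectors, mainly of the WAVE complex and the PAK kinases, had 12 Tle4cKO-only (10.8%) and 38 WT-only peaks (28.4%). Over the whole lists 23.5% of Tle4cKO and 27.1% of WT peaks were list-only. The total of these 10 genes was not set beside peaks of like pileup, so their shares are not read as a difference from the lists. At Abi1, of the WAVE complex, 2 Tle4cKO-only and 9 WT-only peaks were counted. Peaks of like pileup give more of both there, 7 Tle4cKO-only and 12.5 WT-only. The next 4 genes tied. Wasl and Nckap1 each had 0 Tle4cKO-only and 4 WT-only peaks. Peaks of like pileup give 0.11 Tle4cKO-only and 3.05 WT-only at Wasl, and 0.929 Tle4cKO-only and 2.86 WT-only at Nckap1. Wasf2 had 4 Tle4cKO-only and 8 WT-only peaks, beside 1.8 Tle4cKO-only and 1.81 WT-only. Pak2 had 1 Tle4cKO-only and 5 WT-only peaks, beside 0.104 Tle4cKO-only and 2.53 WT-only.

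The sorted identity was examined with marker genes, taking the strongest peak in each gene or within 1000 bp of it. All 8 macrophage markers had a peak in both libraries, with summed pileups of 1017 in Tle4cKO and 1271 in WT. Of 29 markers of other cell types 22 in Tle4cKO and 24 in WT had a peak, with sums of 1069 in Tle4cKO and 1494 in WT. The 4 B cell markers had peaks in both libraries and summed to 187 in Tle4cKO and 329 in WT. The 4 T and NK cell markers summed to 144 in Tle4cKO and 174 in WT. These sums were not set beside pairs of like pileup, whose ratio varies with pileup, so the lists are not ranked by them. Some single markers of other cells were high, as Cd3d (126 in Tle4cKO and 144 in WT) and Pecam1 (132 and 178). Cd3e, of the same list as Cd3d, had only 18 in Tle4cKO and 30 in WT. Of the 8 macrophage markers Adgre1 was the lowest, with 94 in Tle4cKO and 130 in WT, and Cd68 the highest, with 166 and 202. A peak at a marker therefore does not settle which cells were present. Cd8a, Ncr1, Epx, Prg2 and Krt20 were without a peak in both lists, and Ly6g and Sox10 in the Tle4cKO list. Vav1, Dock2, Dock10 and Rac2 are used by many blood cells, and the part of other cells in their values was not tested. In pooled sorted cells, fewer open cells of a type and less opening per cell cannot be told apart.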

How the data were processed

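The authors deposited 1 peak list per library, with position, width, summit and pileup. Pileup, per the file headers, is a signal at the summit. Its deposited values are integers of at least 7, and no scaling between the lists is recorded. Build mm10, MACS2 2.1.1, Bowtie2 2.2.5, cutadapt 1.14, HOMER 4.7.2, featureCounts 1.5.0 and edgeR 3.28.1 appear in the submitters' processing notes without their roles. The sources used here state no calling threshold, Tn5 shift, duplicate handling or read total, so the depth is unknown.

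Overlaps of at least 1 bp were computed in Python 3.11.15 and checked with bedtools 2.31.1. A pair joined 2 overlapping peaks when each was the highest match of its partner. Log2 pileup ratios were centred on the median of 50 bins of summed pileup. List-only counts were set beside the summed list-only shares of 20 pileup classes. Intervals are exact Clopper-Pearson at 95%, cover counting error only, and are approximate for a summit maximum. The steps were tested on a simulated copy of the WT list from which strong peaks were removed or lowered. Peak edges were kept and no weak or Tle4cKO-only peaks were planted. The simulation therefore cannot test the counts of weak list-only peaks. Gene ends came from a RefSeq table of GRCm38.p6; exons and introns were not used here.

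The members and gene lists were chosen with earlier results of these data known. Named peaks were the strongest of each list, the gene-end and start-site peaks, the strongest list-only peaks and the extreme pairs with a summed pileup of at least 60. Other peaks, among them the further Vav3 peaks, were chosen after their values were seen. Of the other pathway genes, up to 3 per list with the largest difference in list-only peaks were named, ties included, except 1 gene that is not reported here.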

Additional observations from a re-analysis of the deposited data

How the results depend on the processing

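No paired analysis was possible because each genotype has 1 library; leaving out a library was not possible either. The WT-only share of the 9 genes (29.5%) was 23.5% with peaks within 500 bp counted as shared, 8.48% at a pileup of at least 15, 3.90% at or above the median pileup and 14.6% among the 100000 strongest peaks. The Tle4cKO-only share (21.6%) was 15.5%, 6.06%, 4.78% and 14.8% under the same settings. Over the whole lists the shares fell too. There the WT-only share (27.1%) was 23.1%, 10.9%, 4.00% and 16.7%, and the Tle4cKO-only share (23.5%) was 19.98%, 3.28%, 1.76% and 13.3%. The first setting changes only the sharing rule, and the other 3 leave out weak peaks. Over the number in peaks of like pileup, WT-only peaks (1.02) came to 0.856 at a pileup of at least 15 and 0.858 among the 100000 strongest, and Tle4cKO-only peaks (1.10) to 2.02 at a pileup of at least 15 and 2.52 at or above the median. Within 2500 bp of gene ends lay 25 Tle4cKO and 24 WT peaks.

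The difference of Tle4cKO-only minus WT-only peaks turned in sign at Dock1 (-2 at a pileup of at least 15, -1 at or above the median, -1 among the 100000 strongest), Dock10 (1 at or above the median), Vav3 (3 among the 100000 strongest) and Arhgap26 (1, 4 and 2 under these settings). WT-only peaks over the number in like peaks fell below 1, outside the counting interval, at Elmo1 (0.577 at or above the median). At a pileup of at least 15 this held at Dock10 (0.500) and Arhgap26 (0.733). Inside the interval, Elmo1 had 0.961 and Dock10 0.888 among the 100000 strongest. Elmo1 had 0.907 with classes of width in place of pileup, and Dock1 0.896 with 50 kb on either side. Arhgap26 had 0.780 among the 100000 strongest, 0.840 with peaks within 500 bp counted as shared and 0.881 at or above the median. Its other values lay between 0.969 and 1.03. The cause was not tested. The median relative log2 ratio at Rac1 was -0.012 with 50 kb on either side. The median over all 9 genes stayed between 0.02 and 0.05 under the other centring, pair and window settings. Of WT peaks of pileup 15 or more 10.9%, and of such Tle4cKO peaks 3.28%, were list-only over the whole lists. Unknown depth limits every count of weak peaks.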
